A study of Mus musculus with 4 samples.

Results

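Small nucleolar RNAs (snoRNAs) and other small structured RNAs were followed in RNA-seq libraries of BV-2, an immortalised mouse microglial cell line, with and without lipopolysaccharide (LPS), an outer membrane lipid of bacteria that macrophages detect through Toll-like receptor 4. The set was every non-coding RefSeq record of the counts table whose symbol starts with Snora, Snord, Scarna, Rnu, Rny or Rn7s, or is Rmrp, Rpph1 or Terc. It held 126 of the 32915 records in the table and 126 of its 4349 non-coding records: 36 H/ACA snoRNAs, 74 C/D snoRNAs, 9 Cajal body RNAs and 7 others, namely Rmrp, Rpph1, Terc, Rnu6, Rnu7, Rnu11 and Rnu12. No record with an Rny or Rn7s symbol was among them, so Y RNAs, 7SK and the signal recognition particle RNA were not analysed here. Treated BV-2 cells received LPS at 10 ng/ml for 4 h (libraries LPS 1 and LPS 2), and the others were 4 h controls of the same line (control 1 and control 2). The labels do not say whether separate cultures were used for the libraries of a group, so every p-value measures only the spread between these libraries, which may be technical. BV-2 is a single immortalised line, and the growth text of the labels also describes shaking of mixed glial cultures although each sample is labelled as BV-2.

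H/ACA and C/D snoRNAs are guides. Bound by dyskerin or by fibrillarin and their partners, they pair with ribosomal RNA and direct pseudouridylation (H/ACA) or methylation of the ribose (C/D). Most vertebrate snoRNAs are cut out of introns of host transcripts, many of which encode ribosomal proteins or serve mainly as carriers. Cajal body RNAs carry out the same chemistry on spliceosomal RNAs. Rmrp is the RNA of RNase MRP, which cleaves precursor ribosomal RNA, Rpph1 is the RNA of RNase P, which trims the leader of precursor tRNA, and Terc is the template of telomerase.

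Sequences of the RNAs on which the results turn, from the GENCODE M21 transcripts (GRCm38, the assembly of mm10), are printed 5′ to 3′ as DNA letters. The pair of RNase RNAs had the most counts of all members, and capitals mark the longest runs they share, of 9 bases each, CAGCGGGGC and GCAGTGCGA. Rmrp lies at chr4:43492788-43493058, minus strand, and the first 300 of the 319 bases of Rpph1, shown here, at chr14:50807468-50807767, minus strand.
Rmrp: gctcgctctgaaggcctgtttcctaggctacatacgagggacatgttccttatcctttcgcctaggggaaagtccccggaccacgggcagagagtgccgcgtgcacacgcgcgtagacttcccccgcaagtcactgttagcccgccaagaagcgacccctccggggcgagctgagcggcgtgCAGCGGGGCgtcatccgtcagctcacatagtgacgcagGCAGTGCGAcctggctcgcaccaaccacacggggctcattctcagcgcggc
Rpph1: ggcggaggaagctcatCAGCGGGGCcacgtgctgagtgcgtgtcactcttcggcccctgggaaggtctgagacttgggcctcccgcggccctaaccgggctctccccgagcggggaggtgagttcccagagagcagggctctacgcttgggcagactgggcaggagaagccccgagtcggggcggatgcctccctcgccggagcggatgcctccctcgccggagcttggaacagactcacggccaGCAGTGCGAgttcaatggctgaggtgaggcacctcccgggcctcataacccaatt

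The next 4 are the most abundant C/D snoRNAs, and capitals mark a C box (TGATGA) in the first 25 bases and a D box (CTGA) in the last 25. Snord17 lies at chr2:144265979-144266216, minus strand, Snord22 at chr19:8725866-8725991, plus strand, Snord15b at chr7:99479563-99479707, minus strand and Snord15a at chr7:99482785-99482932, minus strand. Scarna6, at chr1:87784556-87784820, plus strand, had the most counts of the Cajal body RNAs and is shown with the same marks. Snord22 has no TGATGA in that window.
Snord17: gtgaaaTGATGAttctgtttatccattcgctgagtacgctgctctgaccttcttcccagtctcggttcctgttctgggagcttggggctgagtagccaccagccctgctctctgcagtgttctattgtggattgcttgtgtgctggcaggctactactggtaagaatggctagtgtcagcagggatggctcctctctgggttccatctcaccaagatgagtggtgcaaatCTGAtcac
Snord22: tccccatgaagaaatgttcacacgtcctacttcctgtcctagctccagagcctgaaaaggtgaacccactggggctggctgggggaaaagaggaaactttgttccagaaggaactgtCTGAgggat
Snord15b: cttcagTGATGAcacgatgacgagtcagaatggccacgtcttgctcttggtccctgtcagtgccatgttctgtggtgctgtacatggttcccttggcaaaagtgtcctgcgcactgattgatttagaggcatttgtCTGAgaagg
Snord15a: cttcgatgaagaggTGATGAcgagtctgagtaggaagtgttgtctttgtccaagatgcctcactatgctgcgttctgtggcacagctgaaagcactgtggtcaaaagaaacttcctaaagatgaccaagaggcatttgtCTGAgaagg
Scarna6: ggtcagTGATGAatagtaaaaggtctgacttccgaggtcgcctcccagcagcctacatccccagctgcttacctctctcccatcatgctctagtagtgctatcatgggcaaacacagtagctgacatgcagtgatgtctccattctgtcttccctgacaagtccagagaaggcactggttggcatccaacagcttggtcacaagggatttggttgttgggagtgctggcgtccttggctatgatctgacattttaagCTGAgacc

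The last 4 are H/ACA snoRNAs. Snora43 is the most abundant, Snora64 and Snora68 had the lowest unadjusted p-values after LPS, and Snora21 differed widely between the control libraries. Capitals mark an ACA at positions 4 to 6 from the 3′ end. Snora43 lies at chr2:26637847-26637985, minus strand, Snora64 at chr17:24720772-24720905, plus strand, Snora68 at chr8:70895759-70895889, minus strand and Snora21 at chr11:97781639-97781775, minus strand.
Snora43: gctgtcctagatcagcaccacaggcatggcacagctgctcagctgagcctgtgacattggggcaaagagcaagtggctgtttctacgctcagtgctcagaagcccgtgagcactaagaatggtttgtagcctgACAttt
Snora64: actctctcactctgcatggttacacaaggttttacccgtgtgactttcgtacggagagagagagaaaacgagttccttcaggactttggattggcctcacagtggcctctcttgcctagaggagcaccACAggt
Snora68: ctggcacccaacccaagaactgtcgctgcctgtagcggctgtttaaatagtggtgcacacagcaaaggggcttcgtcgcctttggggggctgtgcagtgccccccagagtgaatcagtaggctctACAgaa
Snora21: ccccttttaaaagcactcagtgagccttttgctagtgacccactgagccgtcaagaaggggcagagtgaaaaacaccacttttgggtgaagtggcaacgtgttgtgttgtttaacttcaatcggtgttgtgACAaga

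The class names were checked against these motifs, searched on the sense strand only. A D box was found in 73 of 74 C/D members (98.6%) and a C box in 47 (63.5%), whereas an ACA at the 3′ end was found in 29 of 36 H/ACA members (80.6%) and in no C/D member. Among GENCODE snRNAs the same windows held a D box in 8.46%, a C box in 0.0723% and the ACA in 0.94% of 1383 transcripts, and among 2197 miRNA hairpins in 11.7%, 0.319% and 3.28%. Of the 9 Cajal body members, 4 held both C and D boxes and 2 held the ACA. A match is a description of these letters in these windows.

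The libraries had 3368693 and 3082538 counts after LPS and 2778686 and 3059196 in the controls, of which the members took 2.50% and 3.11% after LPS and 2.17% and 3.18% in the controls. NR_046233, a record with no symbol in the tables used, took 30.6% to 38.2%, Lars2 took 18.8% to 26.6% and Mir6236 took 0.666% to 0.787%, and with Rmrp and Rpph1 these 5 records held 67.5% of control 1 and 53.4% to 57.7% of the others. Markers of microglia and macrophages were present, Lyz2 at 3392 to 5203 counts and Csf1r at 392 to 560, but Itgam had no count and Trem2 had 1 in all. Oligodendrocyte and fibroblast lists had no count, astrocyte and neuron lists at most 2 counts a library, and of 4 endothelial markers Kdr had 326 to 526 counts, Cdh5 had 0 to 2, and Pecam1 and Cldn5 had 0.

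Of the 126 members, 20 had no count in any library, which allows up to 3 counts in each, and 21 had 1 to 9 counts in all. The filter on low counts was passed by 56 members: 24 H/ACA, 21 C/D, 6 Cajal body and 5 other RNAs. Both Snord116 records and U6 (Rnu6) and U7 (Rnu7) were among the 20. The Snord116 records are 100% identical to each other and each has 69 near copies in GENCODE. How multi-mapped reads were handled is not given, so for members with copies no count does not show absence. Snord118, the U8 snoRNA needed to process precursor ribosomal RNA, had 1 count in LPS 2 and 1 in control 2. Reads were 101 bases long, per the labels, and 78 members have a record shorter than that. Of these 78 short records 23 were tested, and of the 48 at least as long as a read 33 were tested. Libraries were made from total RNA after depletion of ribosomal RNA, and the RNA was purified on a column kit of a type that retains short RNAs poorly. The part of read length and of the column in these levels was not tested.

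No member rose or fell in edgeR's quasi-likelihood test across all records at a threshold of 0.05 on the adjusted p, whereas 386 of 6981 records did (5.53%), 267 higher (3.82%) and 119 lower (1.7%) after LPS. At an unadjusted p below 0.05 the members were Snora64 and Snora68, that is 2 of 56, against 15.4% of all records. Fitted log2 fold changes of LPS over control were below 0 for 39 of 56 members and for 51.7% of all records, with medians of -0.13 for members and -0.01 for all. Both LPS libraries lay below both controls for 11 members (21.9% of all records) and above both for 2 members (21.4% of all records). The 95% interval of the log2 fold change lay inside -1 to 1 for 34 of 56 members, against 60.3% of all records, so for these 34 a change of more than 2-fold in either direction lay outside the interval. For the other members a change of that size was not excluded by the interval. In bulk RNA, fewer cells holding an RNA and less of it in each cell cannot be told apart.

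**Figure D1:**
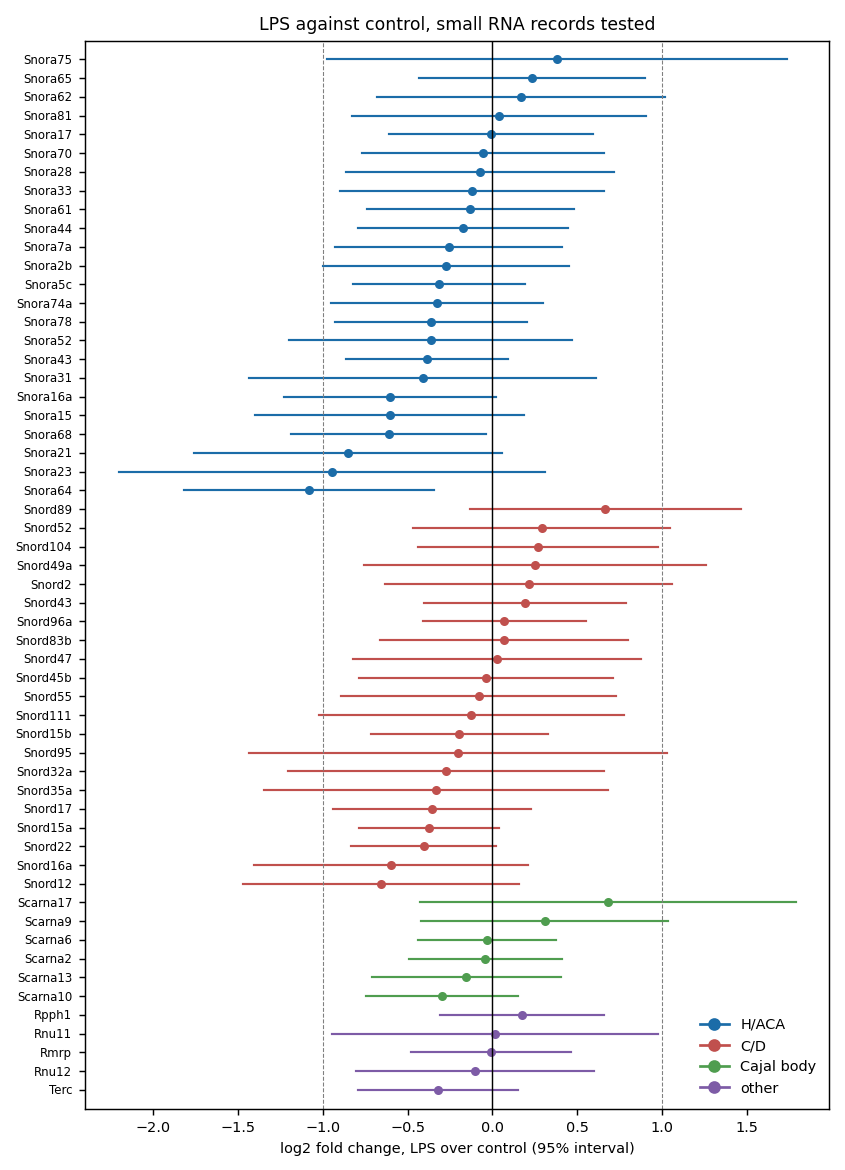
Fitted log2 fold change of LPS over control with its 95% interval for the 56 tested records, grouped by class and ordered by size within it. Dashed lines mark a 2-fold change, and Snora64 and Snora68 are the members whose interval does not reach 0.

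**Figure D2:**
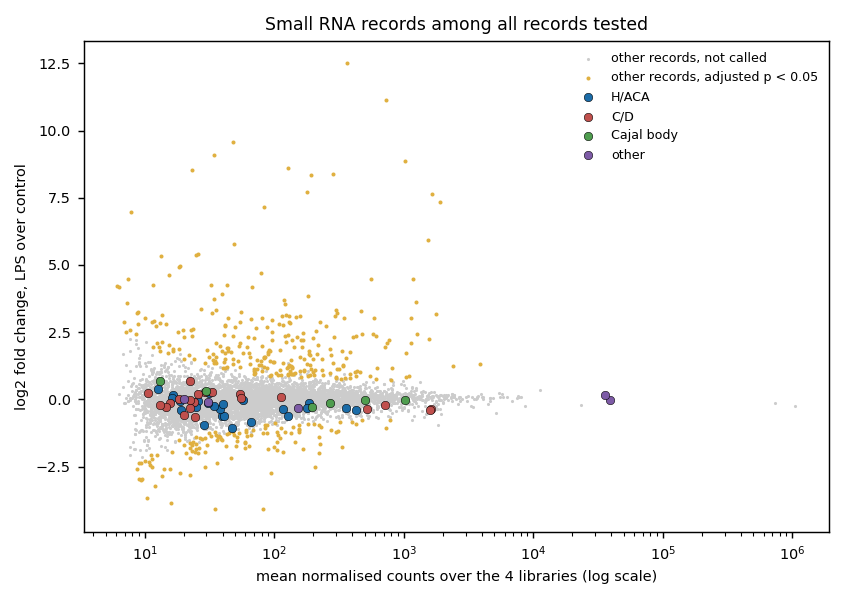
Log2 fold change of LPS over control against mean normalised count (log axis) for all 6981 records tested, with the 56 small RNA records coloured by class. The members lie within -1.08 to 0.68, while the 386 called records reach far larger changes.

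Rmrp and Rpph1 had by far the most counts of the members. Normalised counts, which are counts divided by the TMM-scaled library size and multiplied by the mean scaled size, were used for levels. Rmrp had 35577 and 42840.0 normalised counts in LPS 1 and 2, against 40046 and 38897 in control 1 and 2. The LPS libraries lay on either side of both controls, and the log2 fold change was -0.01 (95% interval -0.48 to 0.46, adjusted p 0.995). Rpph1 had 33395 and 42754 normalised counts in LPS 1 and 2, against 34513 and 32966 in control 1 and 2. LPS 2 was the highest library for both RNAs, and the groups overlapped. For Rpph1 the log2 fold change was 0.17 (95% interval -0.31 to 0.66, adjusted p 0.847). Per 100 bases of record, over all 4 libraries, Rmrp had 14306 and Rpph1 11048 normalised counts, followed by Snord22 with 1255, Scarna2 with 824, Snord17 with 729, Snord15b with 497, Scarna6 with 412 and Snord15a with 353. The H/ACA member highest on this scale was Snora43, with 307. Elsewhere abundance is ranked by counts, not per length.

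Within a library, the ratio of Rpph1 to Rmrp needs no scaling between libraries. It was 0.939 (95% binomial interval 0.925 to 0.952) in LPS 1 and 0.998 (0.985 to 1.01) in LPS 2, against 0.862 (0.847 to 0.877) in control 1 and 0.848 (0.836 to 0.859) in control 2. Both LPS libraries thus had a higher ratio than both controls, by more than counting error. The LPS libraries also differed from each other by more than counting error, so that margin does not mark a group difference. The intervals are binomial and cover counting error only, and the libraries carry no molecular identifiers. An exact two-sided permutation test of 2 against 2 libraries gave p = 0.333, the smallest it can give, so this design cannot reach 0.05. Rmrp is overlapped on the opposite strand by Ccdc107, and how strand was handled in counting is not given in the sources used here.

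Telomerase RNA was the next member of this class. Terc had 147 and 122 normalised counts in LPS 1 and 2, against 180.0 and 158 in control 1 and 2. Both LPS libraries lay below both controls, with a log2 fold change of -0.32 (95% interval -0.79 to 0.15, adjusted p 0.583). RNAs of the minor spliceosome were low: U12 RNA (Rnu12) averaged 29.8 ± 7.55 normalised counts after LPS and 31.9 ± 1.39 in controls (SD, n = 2 each). For U11 RNA (Rnu11) the averages were 20.2 ± 12 normalised counts after LPS and 20.3 ± 1.19 in controls, with 11.7 in LPS 2 as the lowest library and 28.7 in LPS 1 as the highest. Their log2 fold changes were -0.10 (adjusted p 0.951, SE 0.32) for Rnu12 and 0.02 (adjusted p 0.995, SE 0.44) for Rnu11. Rnu11 overlaps the opposite-strand gene Gm28872. Summed over the class, the others had 77468 ± 11717 normalised counts after LPS and 73432 ± 1921 in controls, or 185 ± 37.0 after LPS and 221 ± 15.5 in controls without Rmrp and Rpph1 (SD, n = 2 each).

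Among the H/ACA snoRNAs, 20 of 24 tested members had a log2 fold change below 0, with a median of -0.30, and none passed the test. The class summed to 1907 and 1649 normalised counts in LPS 1 and 2, against 2139 and 2361 in control 1 and 2, a log2 ratio of means of -0.34. As a plain share of all counts the groups overlapped, with 0.0612% (exact 95% binomial interval 0.0586% to 0.0639%) and 0.0547% (0.0521% to 0.0574%) after LPS and 0.0547% (0.0520% to 0.0576%) and 0.0915% (0.0881% to 0.0949%) in the controls. Control 2, with the highest share, was the library in which the 5 most abundant records took the fewest counts (53.4%), and in control 1 they took the most (67.5%).

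Snora64 had the largest difference of any member. It had 34 and 31 counts in LPS 1 and 2 and 31 and 99 in control 1 and 2, that is 31.4 and 30.3 normalised counts in LPS 1 and 2, against 43.6 and 83.6 in control 1 and 2. Control 2 was the highest library and the LPS libraries lay close together below both controls, with a log2 fold change of -1.08 (95% interval -1.82 to -0.34, adjusted p 0.107) and an unadjusted p of 0.00796. With control 1 left out, which keeps the high control 2 as the lone control, the log2 fold change was -1.42. Snora64 was called lower with no filter on low counts (adjusted p 0.0153), where 1.6% of all records were lower. It was also called lower with the replicate number as a block (0.00733), where 4.13% were, and with the GC trend removed (0.0428), where 4.07% were. With control 2 left out the log2 fold change was the smallest of these settings, at -0.50. Its record lies in Rps2, where retained-intron transcripts hold it in an exon, and Rps2 itself had 6051 and 5626 normalised counts in LPS 1 and 2, against 5767 and 4163 in control 1 and 2, a log2 fold change of 0.23 (adjusted p 0.734, SE 0.20). The ratio of Snora64 to Rmrp in the same library was 0.000884 (0.000612 to 0.00123) in LPS 1 and 0.000708 (0.000481 to 0.00100) in LPS 2, against 0.00109 (0.000740 to 0.00155) in control 1 and 0.00215 (0.00175 to 0.00262) in control 2. Both LPS libraries overlapped control 1 within counting error, and the interval of control 2 lay above the others.

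Snora68 was the other member with an unadjusted p below 0.05. Its levels were 114 and 85.1 normalised counts in LPS 1 and 2, against 186 and 122 in control 1 and 2. Both LPS libraries lay below both controls, and the log2 fold change was -0.61 (95% interval -1.19 to -0.04, adjusted p 0.288). Snora43, the most abundant of the class, had 433 and 306 normalised counts in LPS 1 and 2, against 543 and 425 in control 1 and 2. The groups of Snora43 overlapped, since LPS 1 exceeded control 2, and its log2 fold change was -0.39 (95% interval -0.86 to 0.09, adjusted p 0.478). Snora17 lies on the same strand of chromosome 2 and averaged 56.9 ± 5.81 normalised counts after LPS and 58.2 ± 13.1 in controls, with a log2 fold change of -0.01 (adjusted p 0.996, SE 0.27). Its ratio to Snora43 within a library was 0.141 (0.107 to 0.183) and 0.173 (0.127 to 0.231) after LPS and 0.124 (0.0901 to 0.168) and 0.115 (0.0861 to 0.151) in controls, with overlapping intervals.

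In a group of H/ACA members, control 2 stood far above control 1. Snora21 had 49 and 47.9 normalised counts in LPS 1 and 2, against 40.8 and 127 in control 1 and 2. The highest library was control 2 and the lowest was control 1, with LPS between them and a log2 fold change of -0.85 (95% interval -1.76 to 0.06, adjusted p 0.369). Snora23 had 12.9 and 28.4 normalised counts in LPS 1 and 2, against 12.7 and 60.8 in control 1 and 2, and it was high in the second library of each group. Its log2 fold change was -0.95 (95% interval -2.20 to 0.31, adjusted p 0.523), and the record overlaps 1600010M07Rik on the opposite strand. Snora74a had 288 and 350.1 normalised counts in LPS 1 and 2, against 262 and 532 in control 1 and 2, again with control 2 as the highest library and control 1 as the lowest, and a log2 fold change of -0.33 (adjusted p 0.731, SE 0.28). Snora15 averaged 32.3 ± 1.28 normalised counts after LPS and 47.3 ± 25.1 in controls (log2 fold change -0.61 (adjusted p 0.516, SE 0.36)). Snora52 averaged 34.4 ± 6.74 normalised counts after LPS and 42.2 ± 23.9 in controls (log2 fold change -0.37 (adjusted p 0.8, SE 0.38)). In both, as in Snora21, Snora74a and Snora33, control 2 was above each LPS library while control 1 was below both. For Snora33 the means were 29.9 ± 0.828 normalised counts after LPS and 31.2 ± 14.3 in controls, with a log2 fold change of -0.12 (adjusted p 0.947, SE 0.35). Without control 2 the log2 fold change had the other sign in all 6 of these RNAs. It was 0.24 for Snora21, 0.68 for Snora23, 0.28 for Snora74a, 0.12 for Snora15, 0.43 for Snora52 and 0.50 for Snora33. These 6 were named because control 2 stood above control 1, so the change of sign follows from that choice and is no further result.

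Snora61, with a record that covers 62 of the 130 bases of the GENCODE transcript, averaged 176 ± 70.3 normalised counts after LPS and 194 ± 39.6 in controls (log2 fold change -0.13 (adjusted p 0.927, SE 0.28)). Snora5c averaged 159 ± 30.7 normalised counts after LPS and 199 ± 39 in controls (log2 fold change -0.32 (adjusted p 0.638, SE 0.23)). Both had LPS 2 as the lowest library. Snora78 averaged 102 ± 33.6 normalised counts after LPS and 132 ± 10.7 in controls, with a log2 fold change of -0.36 (adjusted p 0.624, SE 0.26), and it overlaps Rps2 on the opposite strand. Snora16a had 32.4 and 32.3 normalised counts in LPS 1 and 2, against 54.9 and 44.7 in control 1 and 2. It was lower in both LPS libraries than in either control, with a log2 fold change of -0.61 (95% interval -1.23 to 0.02, adjusted p 0.346). Snora44 averaged 37.5 ± 4.56 normalised counts after LPS and 42.5 ± 1.59 in controls, also with both LPS libraries below both controls, and Snora16a, Snora44 and Snora61 all lie in Snhg12, a carrier transcript for snoRNAs that averaged 22.9 ± 2.25 normalised counts after LPS and 21 ± 3.78 in controls. The log2 fold change was -0.17 (adjusted p 0.891, SE 0.28) for Snora44 and 0.09 (adjusted p 0.963, SE 0.35) for Snhg12.

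Snora65 was the H/ACA member with both LPS libraries above both controls. It averaged 33.7 ± 2.02 normalised counts after LPS and 29 ± 2.78 in controls, a log2 fold change of 0.23 (adjusted p 0.856, SE 0.30). The other tested members were low and had overlapping groups, apart from Snora2b, which was below both controls after LPS. Snora7a averaged 30.8 ± 3.48 normalised counts after LPS and 37.6 ± 6.56 in controls and had a log2 fold change of -0.26 (adjusted p 0.832, SE 0.31). Snora70 averaged 25.6 ± 3.02 normalised counts after LPS and 26.3 ± 3.38 in controls (log2 fold change -0.06 (adjusted p 0.979, SE 0.33)), and Snora2b averaged 22.8 ± 0.439 normalised counts after LPS and 27.1 ± 4.58 in controls (log2 fold change -0.27 (adjusted p 0.834, SE 0.33)). Snora28 stood at 18.1 ± 0.718 normalised counts after LPS and 19.1 ± 0.795 in controls (SD, n = 2 each). Its log2 fold change was -0.08 (adjusted p 0.973, SE 0.36).

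Snora31, Snora62, Snora81 and Snora75 were also low. Snora31 had 9.25 and 24.4 normalised counts in LPS 1 and 2, against 16.9 and 26.2 in control 1 and 2 (log2 fold change -0.41 (adjusted p 0.827, SE 0.47)). Snora75, which lies in the gene of nucleolin (Ncl), had 6.47 and 23.5 normalised counts in LPS 1 and 2, against 5.63 and 15.2 in control 1 and 2 (log2 fold change 0.38 (adjusted p 0.891, SE 0.62)). In both RNAs the second library of each group was the higher. Snora62 averaged 17.6 ± 1.37 normalised counts after LPS and 15.2 ± 3.58 in controls (log2 fold change 0.17 (adjusted p 0.931, SE 0.39)). Snora81 averaged 16.7 ± 4.02 normalised counts after LPS and 15.9 ± 2.59 in controls (log2 fold change 0.04 (adjusted p 0.99, SE 0.40)).

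**Figure D3:**
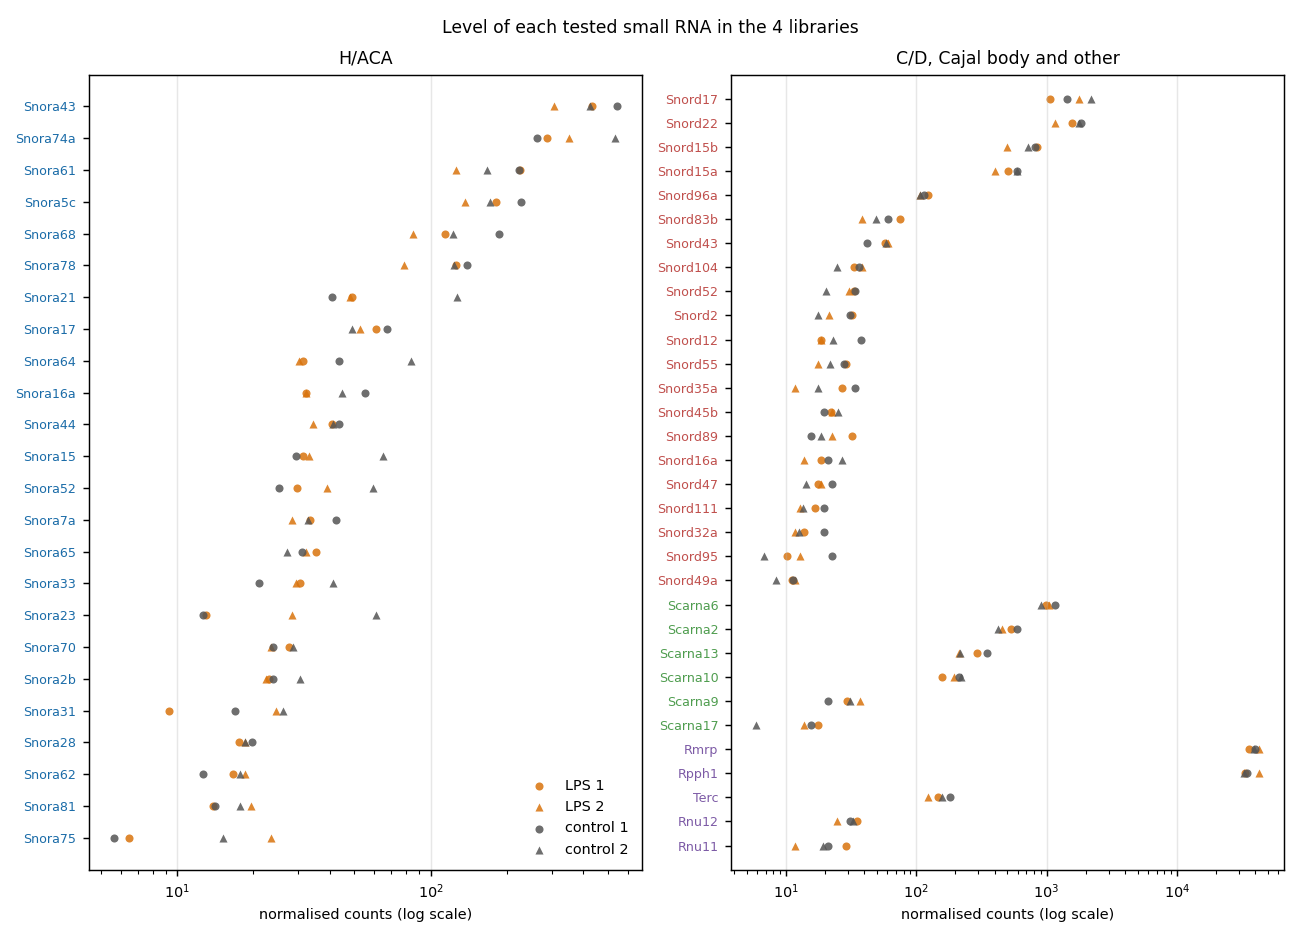
Normalised counts (log axis) of the 56 tested records in LPS 1, LPS 2, control 1 and control 2, by class and ordered by mean level. Rmrp and Rpph1 stand between 32966 and 42840 in all libraries, and most other members lie below 100 and have interleaved groups.

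C/D snoRNAs were led by Snord17, Snord22, Snord15b and Snord15a, and none of the 21 tested members passed the test. Log2 fold changes were below 0 for 12 and above 0 for 9, with a median of -0.08. The class summed to 4727 and 4429 normalised counts in LPS 1 and 2, against 5403 and 5856 in control 1 and 2, a log2 ratio of means of -0.30 in which the 4 leading members weigh most. As a share of all counts it was 0.152% (exact 95% binomial interval 0.148% to 0.156%) and 0.147% (0.143% to 0.151%) after LPS, between the 0.138% (0.134% to 0.143%) of control 1 and the 0.227% (0.221% to 0.232%) of control 2. Without Snord17 the class summed to 3673 and 2654 normalised counts in LPS 1 and 2, against 3969 and 3672 in control 1 and 2. LPS 1 was then just above control 2, so the groups overlapped, and the log2 ratio of means was -0.27.

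Snord22, carried by Snhg1, had 1565 and 1156 normalised counts in LPS 1 and 2, against 1847 and 1759.7 in control 1 and 2. Both LPS libraries were below both controls, with a log2 fold change of -0.41 (95% interval -0.83 to 0.02, adjusted p 0.36). Snhg1 averaged 149 ± 35.5 normalised counts after LPS and 121 ± 51.9 in controls, and its log2 fold change of 0.27 had the other sign. Snord15a had 509 and 401 normalised counts in LPS 1 and 2, against 589 and 589.9 in control 1 and 2. The control libraries differed by less than 1 normalised count, and both LPS libraries lay below them, with a log2 fold change of -0.37 (95% interval -0.79 to 0.04, adjusted p 0.397). Raw counts of Snord15a were 551 and 410 in LPS 1 and 2 and 419 and 699 in control 1 and 2. This order and the closeness of the controls depend on the TMM scaling, whose factors were 0.798 in control 1 and 1.21 in control 2. Snord15b had 845 and 499 normalised counts in LPS 1 and 2, against 814 and 727 in control 1 and 2. Here LPS 1 was the highest library and LPS 2 the lowest, and the log2 fold change was -0.20 (95% interval -0.72 to 0.33, adjusted p 0.838). In human cells both guide methylation of the large ribosomal RNA, and both lie in Rps3, a ribosomal protein gene that averaged 4100.4 ± 73.1 normalised counts after LPS and 4036 ± 700.0 in controls. The ratio of Snord15a to Snord15b was 0.603 (0.541 to 0.671) in LPS 1 and 0.804 (0.704 to 0.917) in LPS 2, against 0.724 (0.637 to 0.822) in control 1 and 0.812 (0.734 to 0.898) in control 2.

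Snord17 had 1054 and 1775 normalised counts in LPS 1 and 2, against 1433 and 2183 in control 1 and 2. It was higher in the second library of each group, and the groups overlapped, with a log2 fold change of -0.36 (95% interval -0.94 to 0.23, adjusted p 0.65). Set against Snord22 in the same library, its ratio was 0.673 (0.624 to 0.726) in LPS 1 and 1.54 (1.43 to 1.65) in LPS 2, against 0.776 (0.714 to 0.843) in control 1 and 1.24 (1.17 to 1.32) in control 2. The pair of abundant snoRNAs therefore differed more within each group than between the groups. Snord17 lies in an intron of Snx5, whose record averaged 13.3 ± 0.529 normalised counts after LPS and 10.4 ± 6.76 in controls.

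Among the remaining C/D members Snord96a was the most abundant. It averaged 115 ± 12.2 normalised counts after LPS and 110.1 ± 5.37 in controls (log2 fold change 0.07 (adjusted p 0.951, SE 0.22)), and Snord95, its companion in Rack1, averaged 11.4 ± 1.8 normalised counts after LPS and 14.6 ± 11.1 in controls (log2 fold change -0.20 (adjusted p 0.944, SE 0.56)). Control 1 was the highest library for Snord95 and control 2 the lowest. Snord43 averaged 59 ± 2.34 normalised counts after LPS and 50.6 ± 11.9 in controls (log2 fold change 0.19 (adjusted p 0.868, SE 0.27)). Snord83b, in the same host Rpl3, had 74.9 and 38.1 normalised counts in LPS 1 and 2, against 60.5 and 49 in control 1 and 2 (log2 fold change 0.07 (adjusted p 0.975, SE 0.33)), with LPS 1 highest and LPS 2 lowest. The groups overlapped in both.

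Snord89 had the highest log2 fold change of the class and did not pass the test. It had 32.4 and 22.5 normalised counts in LPS 1 and 2, against 15.5 and 18.6 in control 1 and 2, so both LPS libraries lay above both controls, with a log2 fold change of 0.67 (95% interval -0.13 to 1.46, adjusted p 0.452). Snord12, which lies in Zfas1, had 18.5 and 18.6 normalised counts in LPS 1 and 2, against 38 and 22.8 in control 1 and 2. Both LPS libraries lay below both controls, with a log2 fold change of -0.66 (95% interval -1.47 to 0.16, adjusted p 0.476). Snord16a, in Rpl4, averaged 16.1 ± 3.39 normalised counts after LPS and 24.1 ± 4.18 in controls and was also below both controls after LPS, with a log2 fold change of -0.60 (adjusted p 0.536, SE 0.37).

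Further C/D members had overlapping groups. Snord104 averaged 35.7 ± 3.43 normalised counts after LPS and 30.5 ± 8.55 in controls (log2 fold change 0.27 (adjusted p 0.838, SE 0.32)), and Snord52 averaged 31.8 ± 2.1 normalised counts after LPS and 27 ± 9.55 in controls (log2 fold change 0.29 (adjusted p 0.834, SE 0.34)). Snord2, in the translation factor gene Eif4a2, averaged 26.9 ± 7.67 normalised counts after LPS and 24.3 ± 9.35 in controls (log2 fold change 0.21 (adjusted p 0.908, SE 0.38)). For each of these, control 2 was the lowest library. Snord55 averaged 23.1 ± 7.82 normalised counts after LPS and 25 ± 4.38 in controls (log2 fold change -0.08 (adjusted p 0.971, SE 0.37)). Snord45b averaged 22.3 ± 0.215 normalised counts after LPS and 22.5 ± 3.98 in controls (log2 fold change -0.04 (adjusted p 0.988, SE 0.34)). Snord47 averaged 18.1 ± 0.718 normalised counts after LPS and 18.4 ± 5.77 in controls (log2 fold change 0.03 (adjusted p 0.993, SE 0.39)); it lies in Gas5, a snoRNA carrier transcript. Gas5 averaged 438 ± 8.8 normalised counts after LPS and 370.5 ± 13.1 in controls and was above both controls in both LPS libraries, with a log2 fold change of 0.24 (adjusted p 0.635, SE 0.18).

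Another pair of low C/D members came from Rpl13a. Snord35a averaged 19.3 ± 10.7 normalised counts after LPS and 25.7 ± 11.3 in controls (log2 fold change -0.34 (adjusted p 0.866, SE 0.46)), and Snord32a averaged 12.8 ± 1.51 normalised counts after LPS and 16.2 ± 4.97 in controls (log2 fold change -0.28 (adjusted p 0.883, SE 0.42)). Their host averaged 2258 ± 170.4 normalised counts after LPS and 2078 ± 508 in controls. Snord111 averaged 14.7 ± 2.78 normalised counts after LPS and 16.6 ± 4.38 in controls (log2 fold change -0.12 (adjusted p 0.954, SE 0.41)), and Snord49a averaged 11.4 ± 0.453 normalised counts after LPS and 9.85 ± 1.99 in controls (log2 fold change 0.25 (adjusted p 0.909, SE 0.46)). The most abundant members that the filter left out were Snora3 with 41 counts over the 4 libraries, and Snord1b with 35.

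None of the 6 tested Cajal body RNAs passed the test, and their median log2 fold change was -0.04. The 9 members summed to 1982 ± 42.3 normalised counts after LPS and 2082 ± 379 in controls (SD, n = 2 each), a log2 ratio of -0.07. The shares of all counts were 0.0646% (exact 95% binomial interval 0.0619% to 0.0674%) and 0.0648% (0.0619% to 0.0677%) after LPS and 0.0601% (0.0573% to 0.0631%) and 0.0703% (0.0673% to 0.0733%) in controls. The control libraries enclosed both LPS libraries, by share and by normalised count.

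Scarna6 had 986 and 1036 normalised counts in LPS 1 and 2, against 1156 and 914 in control 1 and 2, with a log2 fold change of -0.03 (95% interval -0.44 to 0.37, adjusted p 0.979). It lies in an intron of the autophagy gene Atg16l1, whose record averaged 1.39 ± 1.96 normalised counts after LPS and 0 ± 0 in controls and was not tested. Scarna2 had 531 and 459 normalised counts in LPS 1 and 2, against 595 and 427 in control 1 and 2, with a log2 fold change of -0.04 (95% interval -0.49 to 0.41, adjusted p 0.975). Its record covers 61 of the 414 bases of the GENCODE transcript, so reads elsewhere on it are not in this count. Scarna13, in the carrier transcript Snhg10, had 291 and 212 normalised counts in LPS 1 and 2, against 349 and 217 in control 1 and 2. Control 1 was the highest library, and the log2 fold change was -0.15 (95% interval -0.71 to 0.40, adjusted p 0.893).

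Scarna10 was the Cajal body RNA with both LPS libraries below both controls. It had 156 and 195 normalised counts in LPS 1 and 2, against 212 and 219 in control 1 and 2, with a log2 fold change of -0.30 (95% interval -0.75 to 0.15, adjusted p 0.6). Its record covers 71 of 325 bases of the GENCODE transcript and lies in Ncapd2, a condensin subunit gene. Scarna9 averaged 33.4 ± 5.36 normalised counts after LPS and 26.2 ± 7.16 in controls (log2 fold change 0.31 (adjusted p 0.809, SE 0.33)). Scarna17 averaged 15.6 ± 2.74 normalised counts after LPS and 10.7 ± 6.76 in controls (log2 fold change 0.68 (adjusted p 0.649, SE 0.50)), with control 2 the lowest library. Scarna8 had 3 counts in all, and Scarna3a and Scarna3b had none.

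Host transcripts were examined because most members are intronic. A host gene on the same strand was annotated for 114 members. Of these, 61 lay in an intron of every host transcript, 35 in an exon of retained-intron transcripts only and 18 in an exon of another host transcript of the host. Reads of host RNA that keeps the small RNA's sequence and reads of the mature small RNA cannot be told apart in these counts. Among tested members 37 had a tested host record, with 30 hosts in all, 14 of them ribosomal protein genes. The host log2 fold changes had a median of 0.10 and ran from -0.97 to 0.36, and 1 of 30 hosts passed the test, against 5.53% of all records. That host was Ncapd2, which fell after LPS. It had 60.1 and 55.7 normalised counts in LPS 1 and 2, against 108 and 118 in control 1 and 2, a log2 fold change of -0.97 (95% interval -1.48 to -0.46, adjusted p 0.0321). By DESeq2, and with either LPS library left out, it did not pass the test. Scarna10 inside it did not pass the test, and its groups did not overlap.

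Across the 37 pairs the log2 fold changes of member and host had a Spearman's rho of -0.12, given as a description because hosts carry more than 1 member and all values share the same libraries. Rps2, Rpl23 and Ipo7, the hosts of Snora64, Snora21 and Snora23, had log2 fold changes of 0.23, 0.14 and 0.00. These snoRNAs had the lowest log2 fold changes of the 37, and none passed the test. Without control 2 the values were 0.24 for Snora21 and 0.68 for Snora23. Whether these snoRNAs changed apart from their hosts was not tested. Among the other ribosomal protein hosts, Rps3, Rpl3, Rpl13a, Rpl4, Rps12, Rpl12, Rpl32, Rplp2, Rpl10 and Rpsa had values between 0.00 and 0.18. How reads shared by several records of a gene were assigned is not given in the sources used here, and some host records were near 0, among them Rabggtb (0 counts, host of Snord45b) and 1110038B12Rik (host of Snord52, 6.22 ± 2.26 normalised counts after LPS and 3.66 ± 3.18 in controls).

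**Figure D4:**
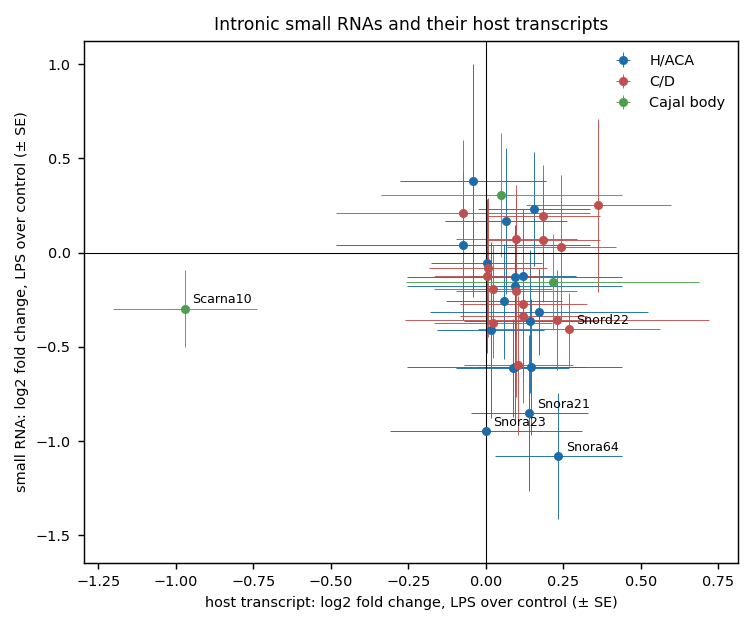
Log2 fold change of LPS over control for 37 small RNAs within host genes (vertical) against that of the host transcript (horizontal), with standard errors. Some of the 37 lie in exons of a host transcript. Host values lie within -0.07 to 0.36 apart from Ncapd2 at -0.97, while the small RNAs run from -1.08 to 0.38.

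Libraries of the same group differed in the small RNAs by more than counting error. Without Rmrp and Rpph1 the chi-square per degree of freedom was 8.17 between the LPS libraries and 7.80 between the controls over members with counts. Over records outside the members and the 5 most abundant it was 1.72 between the LPS libraries and 6.48 between the controls. A chi-square of this kind grows with the counts of the records in it, so the sets are set side by side with no test. Snord17, Snora23, Snora31, Snora75 and Snora74a were higher in library 2 of both groups. By contrast, Snord22, Snord15b, Snora61, Snora5c, Snora43, Snora68, Snord35a and Scarna13 were lower in library 2 of both groups.

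GC content moved with this difference. Across the 24 tested H/ACA members, Spearman's rho of GC content with the log2 ratio of library 2 to library 1 was -0.68 in the LPS pair and -0.60 in the control pair, and across 21 C/D members it was -0.26 in the LPS pair and 0.16 in the control pair. Over 6877 records that are not members it was -0.27 in the LPS pair and -0.66 in the control pair. H/ACA members of low GC content were therefore the higher ones in library 2 of each group, and GC content had a rho of -0.04 with their LPS over control ratio. The part of GC content in the levels of single members was not tested beyond the fit with the GC trend removed, in which Snora64 was the one member called.

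**Figure D5:**
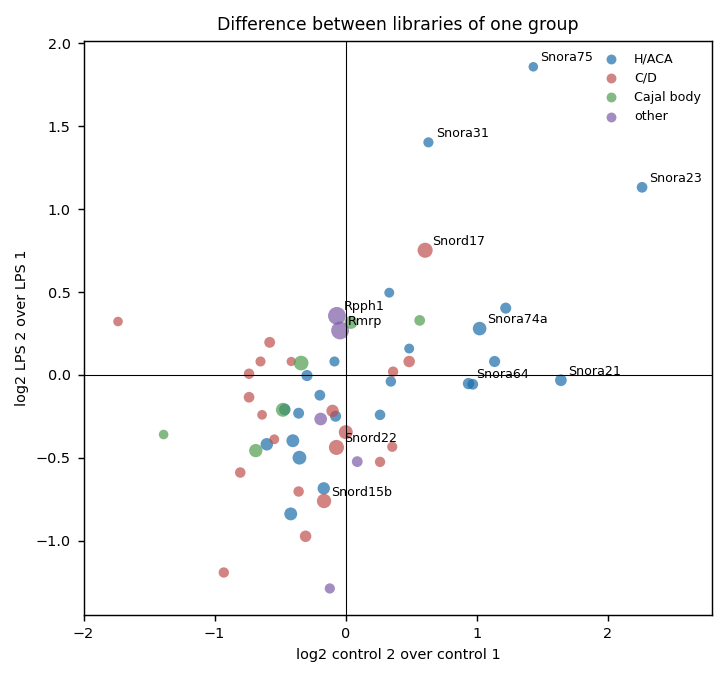
Log2 ratio of LPS 2 to LPS 1 (vertical) against that of control 2 to control 1 (horizontal) for the 56 tested records, coloured by class, with larger points for more abundant records. Snora23, Snora75, Snora31 and Snord17 lie in the upper right, while Snora21 and Snora64 differ between the controls and not between the LPS libraries.

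The members called changed with the control library left out. With control 1 left out, 9 of 66 tested members were lower, against 6.65% of all records, and they were Snora64, Snora21, Snora23, Snora15, Snora52, Snora74a, Snord17, Snord22 and Snord15a. With control 2 left out, 6 of 65 were lower, against 8.09% of all records, and they were Snora68, Snora43, Snora5c, Scarna13, Snord22 and Snord15a. In these fits the spread comes from the LPS pair alone and the lone control is assumed to vary like it. Snord22 and Snord15a are in both lists, but both fits use the same LPS libraries, so the lists are not separate support. The log2 fold change of Snord22 was -0.36 without control 1 and -0.44 without control 2. For Snord15a it was -0.36 and -0.38. In the quasi-likelihood test on all 4 libraries their adjusted p was 0.36 and 0.397. With either LPS library left out no member was called. A smaller share of all records was called in those fits than with all 4 libraries, so this says little about the members.

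Proteins that bind, process or transcribe these RNAs were read out of the same fit. The lists held 99 symbols, some of them second names of a listed gene (Nhp2l1 for Snu13, Trove2 for Ro60, Srpra for Srpr). Of these symbols 95 had a record and 73 genes were tested, and none rose or fell, against 5.53% of all records. Their median log2 fold change was 0.07. At an unadjusted p below 0.05 there were 2, against 15.4% of all records. Pop7, a protein subunit of RNase P and RNase MRP, had 103 and 91.9 normalised counts in LPS 1 and 2, against 70.3 and 50.6 in control 1 and 2, with both LPS libraries above both controls and a log2 fold change of 0.71 (95% interval 0.15 to 1.27, adjusted p 0.185). Polr3gl, a subunit of RNA polymerase III, had 14.8 and 10.8 normalised counts in LPS 1 and 2, against 28.1 and 24.5 in control 1 and 2, with both LPS libraries below both controls and a log2 fold change of -1.02 (95% interval -1.84 to -0.19, adjusted p 0.196).

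The lists by role gave these values for their genes of highest count. In the H/ACA complex all 6 genes were tested, with log2 fold changes of 0.04 to 0.38, and Nop10 averaged 442 ± 16.7 normalised counts after LPS and 418 ± 32.6 in controls and dyskerin (Dkc1) averaged 318 ± 41.5 normalised counts after LPS and 285 ± 94.1 in controls. For C/D proteins 5 were tested, with 0.01 to 0.38, and Snu13 averaged 1002 ± 24.7 normalised counts after LPS and 919 ± 34.8 in controls and Nop56 averaged 657 ± 6.61 normalised counts after LPS and 586 ± 8.58 in controls. None of these tested genes passed the test, and in the fit over all records 51.7% of values were below 0. Among assembly and transport factors (5 tested, -0.01 to 0.59) the helicases Ruvbl2 and Ruvbl1 had log2 fold changes of 0.15 and -0.01. Of Cajal body and telomerase genes 3 were tested, and Tep1 averaged 82.3 ± 6.63 normalised counts after LPS and 114 ± 11.9 in controls, a log2 fold change of -0.46 (adjusted p 0.384, SE 0.23), and coilin (Coil) had 0.10.

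Of RNase P and RNase MRP proteins 8 were tested, with a median of 0.06, and Pop4 averaged 152 ± 10.1 normalised counts after LPS and 149.5 ± 13.3 in controls and Pop5 averaged 120.2 ± 3.97 normalised counts after LPS and 141 ± 23.7 in controls. The log2 fold changes were 0.03 (adjusted p 0.983, SE 0.21) for Pop4 and -0.22 (adjusted p 0.792, SE 0.22) for Pop5. In the RNA polymerase III list 22 were tested, with a median of 0.01, and Gtf3c1 had a log2 fold change of 0.08. Of 7SK partners 5 were tested, and Cdk9 and Ccnt1 had 0.10 and 0.17. In the signal recognition particle list 8 were tested, and Srp72 and Srpr had 0.15 and 0.06. The spliceosomal list had 10 tested genes with a median of -0.03, and Snrpb and Snrpd2 had -0.06 and 0.07. Ro60, the Y RNA binding protein and the one tested gene of its list, had 32.4 and 72.4 normalised counts in LPS 1 and 2, against 28.1 and 88.6 in control 1 and 2, high in the second library of each group, with a log2 fold change of -0.24 (adjusted p 0.923, SE 0.47).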

How the data were processed

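Total RNA of BV-2 cells was depleted of ribosomal RNA, per the labels' protocols, and directional, randomly primed libraries were sequenced as 101-cycle paired ends. The authors deposited 1 table of whole-number read counts per RefSeq record, with 1 column per library. It is named as normalized, but its values are whole numbers with column totals that differ, and they were treated as raw counts. The submitters' processing notes name TopHat2 2.0.10, HTSeq 0.6.1, Cufflinks 2.2.1, Trimmomatic 0.33, CASAVA 1.8.2 and mm10 with no role; the annotation release, strand setting and handling of multi-mapped reads were not given in the sources used here. Near copies elsewhere in the genome (Rnu6 has 341 in GENCODE, each Snord116 record has 69, Rnu12 has 3) make such members uncertain.

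Symbols were taken from RefSeq tables of GRCm38.p6 for 32483 records and from GENCODE M21 for 191; 241 had none. Groups and replicate numbers came from the sample titles. Records passing filterByExpr (minimum count 10) were tested by edgeR 4.0.16 (R 4.3.3) with TMM scaling, the quasi-likelihood test on all 4 libraries without covariates, and Benjamini-Hochberg adjustment over 6981 records, at 0.05. Values are mean ± SD with n = 2. Class sums had no test. A host is the same-strand gene whose span holds the member. Intervals of shares and ratios are exact binomial and cover counting error only.

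Alternatives were other scalings and filters, DESeq2 1.42.0, limma 3.58.1 (voom), leaving out each library, a replicate block and, chosen after seeing the data, removal of the GC trend. The fit was tested on simulated counts. The values of some hosts and partner genes are not reported here. Every tested member was named, with the 2 most abundant genes of each partner list, hosts of named members and the 3 other records among the 5 most abundant; genes of partner lists near the threshold, the members left out by the filter and the copies named here were chosen after their values were seen. The members and all lists were chosen with earlier results of these data known.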

Additional observations from a re-analysis of the deposited data

How the results depend on the processing

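Over 14 alternative settings, 662 of 750 member values kept their direction and their side of the threshold, 70 changed sign (33 members) and 18 passed the threshold, all lower after LPS. No member was called lower in the fit as reported, and 1 was, Snora64, with no filter on low counts, with the replicate block and with the GC trend removed. Leaving out 1 library gave 0 to 9 members lower and 0 higher, 0 to 5 partner genes higher and 0 to 1 lower, and 0 to 7 hosts higher and 0 to 2 lower. With either control left out, larger shares of all records were called higher and lower than with all 4 libraries. The lone control is there assumed to vary like the LPS pair, so those fits cannot decide whether partner genes or hosts changed. With the GC trend removed 2 of 73 partner genes and 1 of 30 hosts were higher, against 6.53% of all records. With DESeq2 no host was lower, against 0.945% of all records. Among all records the replicate block gave 401 higher and 288 lower; the labels do not say whether equal numbers pair the libraries, and with 2 pairs the data do not settle it. Over 6981 records the deviations of LPS 1 and control 1 from their group means had a correlation of 0.24 (0.52 over the 56 members).

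The values that changed sign are given as log2 fold change of LPS over control. With upper-quartile scaling it was -0.00017 for Snord96a, -0.0015 for Snord83b, -0.042 for Snord47, -0.029 for Snora81 and -0.052 for Rnu11. With the replicate block it was -0.0092 for Snord83b and -0.086 for Rnu11. With the GC trend removed it was 0.045 for Snord55, -0.00041 for Snord47, 0.018 for Scarna6, 0.13 for Scarna2, 0.0503 for Snora17, -0.0012 for Snora81 and 0.14 for Rmrp. With the DESeq2 Wald test it was -0.0049 for Snord47. With limma-voom it was 0.044 for Snord95, 0.011 for Snora17 and -0.11 for Rnu11. With TMM without the 5 most abundant records it was 0.0012 for Snora17. With no filter on low counts it was 0.023 for Snora17 and 0.022 for Rmrp. With 1 library left out, values ran from -0.61 to 0.14 for Snord15b, -0.0301 to 0.18 for Snord96a, -0.49 to 0.47 for Snord83b, -0.041 to 0.55 for Snord104, -0.089 to 0.66 for Snord52, -0.20 to 0.62 for Snord2, -0.47 to 0.22 for Snord55, -0.17 to 0.18 for Snord45b, -1.05 to 0.14 for Snord35a, -0.32 to 0.34 for Snord47, -0.42 to 0.13 for Snord111, -0.62 to 0.027 for Snord32a, -0.98 to 0.76 for Snord95, -0.20 to 0.15 for Scarna6, -0.27 to 0.22 for Scarna2, -0.47 to 0.23 for Scarna13, -0.73 to 0.28 for Snora74a, -0.60 to 0.23 for Snora61, -1.38 to 0.24 for Snora21, -0.25 to 0.23 for Snora17, -0.997 to 0.12 for Snora15, -0.78 to 0.43 for Snora52, -0.46 to 0.50 for Snora33, -1.57 to 0.68 for Snora23, -0.16 to 0.096 for Snora70, -1.24 to 0.16 for Snora31, -0.0028 to 0.47 for Snora62, -0.21 to 0.29 for Snora81, -0.76 to 1.37 for Snora75, -0.14 to 0.13 for Rmrp, -0.0066 to 0.36 for Rpph1, -0.37 to 0.14 for Rnu12 and -0.76 to 0.51 for Rnu11. The cause of these changes was not tested. For class sums, leaving out 1 library gave -0.36 to -0.24 for C/D, -0.25 to 0.13 for Cajal body, -0.45 to -0.24 for H/ACA and -0.09 to 0.22 for other. As shares of counts outside the 5 most abundant records, a setting that also drops Rmrp and Rpph1 from their class, the log2 ratio was -0.38 for C/D and -0.34 for the others.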

Other observations

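In the annotation, 10 further records of the snoRNA type have symbols outside the rule, and 2 of them had counts. Gm12238 had 12 and 10 counts in LPS 1 and 2 and 3 and 11 in control 1 and 2. AF357399 had 1 and 5 counts in LPS 1 and 2 and 2 and 7 in control 1 and 2. Neither was compared between the groups.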
